A study of Mus musculus with 2 samples.

Results

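The 5 genes described here, Pou2f1, Pou2f2, Pou3f1, Pou3f2 and Pou3f3, encode transcription factors of the POU2 and POU3 groups. They were taken by gene symbol from the 31053 genes counted in single cells of the embryonic mouse eye, and all 5 were found. The genes were chosen by their levels in these same 2 libraries, seen in earlier work, so every level and ratio below is a description and carries no test. Eyecups with neural retina, lens and blood were collected at E13.5 and sequenced as 1 control and 1 DKO library. The control embryo was labelled Six3+/-;Six6+/-, so it also carried 1 inactive copy of each gene, and it was picked for having no GFP, whereas the DKO embryo was recognised by GFP+ rosettes in its retinas. The DKO embryo was Six3F/F;Six6-/-;a-Cre, in which Six6 is inactive in all cells and Six3 is removed only where a-Cre, a Cre driven by a retinal Pax6 enhancer of the peripheral retina, has been active. The DKO library therefore holds cells with and without Six3, and no second embryo of either genotype was profiled.

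POU proteins bind DNA through a POU-specific domain joined to a homeodomain, and many recognise an octamer motif. Pou2f1 is made by nearly all cell types, and Pou2f2 is known from B lymphocytes and from the developing nervous system. Both have been linked to the early competence of retinal progenitors, the cells that divide and give rise to all neurons of the retina in a fixed order. Pou3f1, Pou3f2 and Pou3f3 are known from neural progenitors and young neurons of the brain, where Pou3f2 and Pou3f3 act together in cortical neurogenesis and Pou3f1 also acts in retinal ganglion cells, the projection neurons of the eye.

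Pou3f1, Pou3f2 and Pou3f3 are each annotated with 1 exon in 1 transcript. On GRCm38 (mm10), in the GENCODE annotation, Pou3f1 lies at chr4:124656807-124660655 on the plus strand, Pou3f2 at chr4:22482780-22488366 on the minus strand and Pou3f3 at chr1:42695768-42703176 on the plus strand. Pou2f1 at chr1:165865154-166002678 and Pou2f2 at chr7:25087344-25179726, both on the minus strand, have 18 and 10 annotated transcripts. Pou2f2 overlaps D930028M14Rik on the other strand and Mir6537 on its own. The strand setting of the counting is not given in the sources used here, so it is unknown whether reads of D930028M14Rik enter the Pou2f2 counts. Pou3f3 shares its strand with an overlapping model, AC122898.1, and reads from that stretch cannot be assigned to either with certainty.

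Promoter windows from RefSeq (GRCm38.p6) were matched for 4 of the 5 members, and not for Pou3f1. The 250 bases before the start are shown for Pou2f2, the member lower by more than 2-fold in DKO naive-like cells, and for Pou3f2 and Pou3f3, the members higher there. The windows are chr7:25132461-25132710 on the minus strand for Pou2f2, chr4:22488367-22488616 on the minus strand for Pou3f2 and chr1:42695518-42695767 on the plus strand for Pou3f3. The Pou2f2 start used by RefSeq lies inside the GENCODE gene model. Capitals mark CCAAT on the printed strand, and both CCAAT and its reverse, ATTGG, were searched.
Pou2f2: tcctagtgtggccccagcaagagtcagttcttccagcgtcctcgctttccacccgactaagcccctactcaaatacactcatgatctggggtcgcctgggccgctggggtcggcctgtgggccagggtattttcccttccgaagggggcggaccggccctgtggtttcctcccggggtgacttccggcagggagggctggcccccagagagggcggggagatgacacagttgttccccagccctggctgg
Pou3f2: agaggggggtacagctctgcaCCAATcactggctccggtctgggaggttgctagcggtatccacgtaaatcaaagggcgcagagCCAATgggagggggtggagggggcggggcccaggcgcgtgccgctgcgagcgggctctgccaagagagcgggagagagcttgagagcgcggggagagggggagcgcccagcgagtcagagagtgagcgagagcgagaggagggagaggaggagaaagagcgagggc
Pou3f3: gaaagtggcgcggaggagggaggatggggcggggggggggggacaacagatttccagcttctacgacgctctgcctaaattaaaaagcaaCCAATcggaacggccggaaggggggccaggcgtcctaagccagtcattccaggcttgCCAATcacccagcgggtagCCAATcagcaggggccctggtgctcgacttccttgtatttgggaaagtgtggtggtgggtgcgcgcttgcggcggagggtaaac
Pou3f3 held 3 copies of CCAAT and Pou3f2 held 2, whereas Pou2f2 held 0. Of 32851 windows of this length, 33.8% held CCAAT at least once and 2.79% held 3 or more. The octamer ATGCAAAT, or its reverse ATTTGCAT, was in none of the 3 windows and in 1.6% of all windows. TAATT, or AATTA, was found 1 time in the Pou3f3 window and in 25% of all windows, and no copy of CCAAT overlapped either of the other motifs. CCAAT was picked after the windows had been read, and these matches describe letters and not bound sites.

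The control library held 10315 barcodes and 85589515 unique molecules (UMIs), and the DKO library 12672 barcodes and 85173276 UMIs. After filtering, 9822 control and 12146 DKO cells were kept, with medians of 7620 and 5879 UMIs, and 20 of the kept barcodes occurred in both libraries. Cells were clustered without the members, without the other genes listed below and without Six3 and Six6, and 20 clusters were obtained. A cluster was named only where its markers stood above the other cells, and the word like marks these names as rebuilt. The naive progenitor-like class (clusters 0, 1 and 9) held 3734 control and 3592 DKO cells, the neurogenic progenitor-like class (clusters 3 and 10) 1421 and 1508 cells, and the ganglion-like class (clusters 6, 8 and 13) 1064 and 1713 cells. Six6 was at 362 UMIs per 1000000 UMIs in control and 44.6 in DKO naive-like cells, and Six3 at 299 and 222. Counts come from 3' ends, so they report transcripts and not intact alleles.

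Levels are given as UMIs per 1000000 UMIs of the summed cells of a class (CPM), with exact 95% Poisson intervals, and ratios with the exact binomial interval of the split of UMIs. Intervals cover counting error only. With 1 library per genotype, a difference between embryos, dissections or captures cannot be told apart from a difference between genotypes.

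In naive-like cells, the dividing progenitors that have not begun to make neurons, Pou2f2 was lower and Pou3f2 and Pou3f3 were higher in DKO than in control. Pou2f2 was at 119 CPM (115 to 122) in control and 34.5 (32.4 to 36.6) in DKO, from 4389 and 1073 UMIs, which is 3.45-fold lower. Pou3f2 was at 39.1 (37.1 to 41.2) in control and 93.5 (90.2 to 97) in DKO, 2.39-fold higher. Pou3f3 gave 3 UMIs in control and 294 in DKO, or 0.0812 and 9.44 CPM. The 2 intervals of each of these genes were far apart, and Pou3f3 went from a level near the limit of detection to a low but countable one. Its log2 ratio was 6.86 with a wide interval of 5.30 to 9.15, since it rests on 3 control UMIs. These values belong to the class as clustered here, and its DKO and control cells may differ in state. Without integration the class held 2059 control and 1036 DKO cells, in which Pou3f3 gave 1 and 2 UMIs. The log2 ratio of Pou3f2 was then 0.79.

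Pou3f1 and Pou2f1 were also lower in DKO naive-like cells, but by less than 2-fold. Pou3f1 was at 31.0 CPM in control and 16.1 in DKO, a log2 ratio of -0.95 (-1.10 to -0.79), just short of 2-fold. Pou2f1, the broadly made member, was at 73.5 in control and 62.6 in DKO, a log2 ratio of -0.23 (-0.32 to -0.15). Past 2-fold were thus 2 members upward and 1 downward of the 5. Among all 12747 genes with at least 50 UMIs over both libraries in this class, 3.25% were higher and 1.25% lower by at least 2-fold, and the median log2 ratio was 0.03. Because the members were chosen on these libraries, nothing is read from their count against that background.

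**Figure D1:**
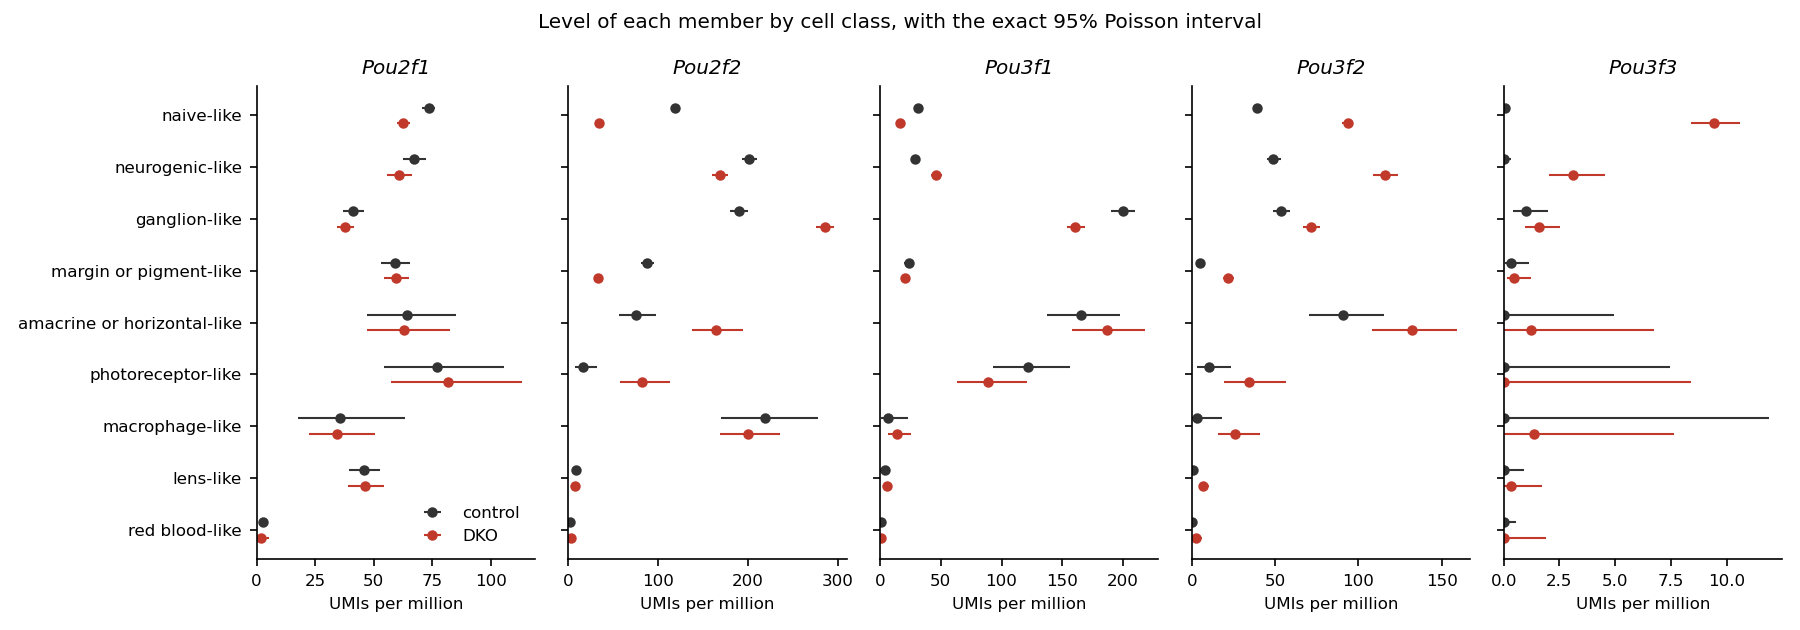
Level of each member in CPM (horizontal axis, a separate linear scale per gene) in 9 named cell classes (vertical axis), for control (dark) and DKO (red), with exact 95% Poisson intervals as bars. Pou2f2 sits at 119 in control and 34.5 in DKO naive-like cells but at 190.1 and 285 in ganglion-like cells, and Pou3f3 is at 9.44 in DKO naive-like cells and at 1.59 or below in the other classes except DKO neurogenic-like cells, at 3.09.

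The same directions were seen in each of the 3 naive-like clusters. Cluster 0, led by histone genes of S phase, had Pou2f2 at 121 CPM in control and 36.6 in DKO. Cluster 1, with leading genes such as Ung, had 108 and 27.1, and cluster 9, led by mitosis genes such as Cdc20 and Ccnb1, had 139 and 41.6. Cluster 9 had the highest Pou2f2 level of the 3 in both libraries. In DKO its interval, 35.8 to 48.0, overlapped that of cluster 0, 33.8 to 39.6. Pou3f2 was at 33.9, 42.2 and 50.2 in control clusters 0, 1 and 9, and at 82.3, 105 and 113 in the DKO clusters. Pou3f3 gave 1, 2 and 0 control UMIs against 142, 106 and 46 DKO UMIs in these clusters. Pou3f1 was lowest against control in cluster 1, at 30.7 and 11.9, a log2 ratio of -1.37 (-1.69 to -1.06).

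The share of cells with a UMI followed the levels. With each cell thinned to 2000 UMIs, 21.1% of control and 5.96% of DKO naive-like cells held a Pou2f2 UMI, from 3700 and 3538 cells. Pou3f2 was found in 8.16% and 16.8% of them, and Pou3f3 in 1 control cell, 0.027%, and 69 DKO cells, 1.95%. Without thinning, the shares were 57.3% and 19.9% for Pou2f2, 26.6% and 44.4% for Pou3f2, and 0.0803% and 5.4% for Pou3f3. In red blood-like cells, which should lack these genes, 0.129% of control and 0.375% of DKO cells held a thinned Pou2f2 UMI. Pou3f3 was found in 0 of 267 thinned DKO red blood-like cells, which allows a share of up to 1.12%. Median depth before thinning was 8632 and 7397 UMIs in naive-like cells and 9027 and 7225 in red blood-like cells.

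The count in naive-like cells moved with the clustering, in which the class held fewer cells of both libraries. At a resolution of 1, with 1792 control and 1428 DKO cells, only Pou2f2 was past 2-fold among members with at least 50 UMIs, at a log2 ratio of -1.38, and Pou3f2 stood at 0.72, while Pou3f3 gave 0 and 49 UMIs, at least 24.7-fold higher, and was not counted. Clusters led by Fabp7, with 594 and 516 control and 773 and 682 DKO cells, were unnamed at that resolution. They matched the naive list best, but its markers were not above the other cells in 1 of the libraries. Their part in the shift was not tested. Without integration, with 2059 and 1036 cells, Pou2f2 stood at -1.01, Pou3f2 at 0.79 and Pou3f1 at 0.013, and Pou3f3, with 1 and 2 UMIs, was not counted.

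DKO naive-like cells differed among themselves by their Six3 level. DKO cells were clustered on their own, with Six3 and the members again left out, and the name Six3-low is used for subclusters with less than 50% of the Six3 found in control cells of the same class. By this measure 1731 of 3592 DKO naive-like cells, 48.2%, were Six3-low. Six3 was at 114 CPM in them and at 327 in the other 1861, against 299 in control. Pou2f2 was at 21.7 in the Six3-low cells, 46.9 in the other DKO cells and 119 in control. Both DKO groups were thus below control, with log2 ratios of -2.45 (-2.62 to -2.29) and -1.34 (-1.45 to -1.23). Pou3f1 was at 8.27 in the Six3-low cells and at 23.7 in the others, with log2 ratios to control of -1.91 and -0.39. Pou3f2 was at 126 and 62.2, both above the control level of 39.1. Pou3f3 gave 274 UMIs in the Six3-low and 20 in the other DKO cells, or 17.8 and 1.27 CPM. Pou2f1 was at 57.8 and 67.3, the smallest difference of the 5.

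**Figure D2:**
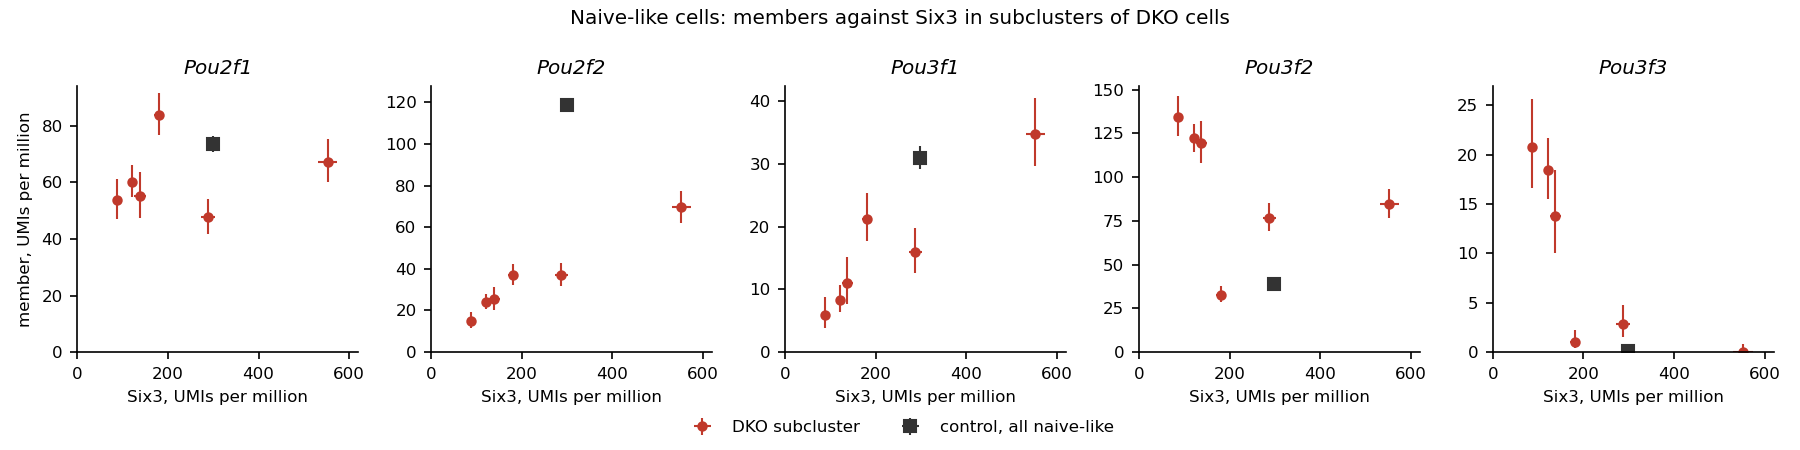
Level of each member (vertical axis, CPM, a separate linear scale per gene) against Six3 (horizontal axis, CPM) in 6 subclusters of DKO naive-like cells with at least 100 cells (red), and in all control naive-like cells (dark square), with exact 95% Poisson intervals as bars. Pou3f3 lies between 13.8 and 20.8 in the 3 subclusters with Six3 at 138 or less, and at or below 2.86 in the other 3.

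The 6 subclusters held 358 to 773 naive-like cells each. Six3 ranged from 87.3 CPM in the lowest to 552 in the highest. Those 2 subclusters had Pou2f2 at 15.1 and 69.5, Pou3f1 at 5.98 and 34.9, and Pou3f3 at 20.8 and 0. The subcluster with the highest Six3 thus had no Pou3f3 UMI in 568 cells, and its Pou3f1 level was close to the control level of 31.0, whereas its Pou2f2 level stayed below the 119 of control. Pou3f2 was at 135 in the subcluster lowest in Six3 and at 84.7 in the highest. The lowest Pou3f2 level, 32.9, was in a subcluster with Six3 at 181, so Pou3f2 did not follow Six3 in order. The 6 points share a library, and no correlation is given.

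The split by Fabp7, a fatty acid binding protein of neural progenitors that was left out of the clustering, gave the same order. Of the DKO naive-like cells, 846 or 23.6% held a Fabp7 UMI, with a median of 7803 UMIs per cell against 7243 in the other 2746. Pou3f3 was at 33.2 CPM in cells with a Fabp7 UMI and 1.34 in those without, so that 263 of its 294 UMIs came from them. Pou3f2 was at 149 and 74.6, Pou2f2 at 14.7 and 41.2, Pou3f1 at 6.30 and 19.4, and Six3 at 95.3 and 265.

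In neurogenic-like cells, the progenitors that express Atoh7 and are about to leave the cycle, Pou2f2 was nearly as high in DKO as in control, and Pou3f2 was again higher. Pou2f2 was at 202 CPM (193 to 210.3) in control and 169 (159.9 to 178) in DKO, a log2 ratio of -0.26 (-0.36 to -0.16). In control it was thus higher in neurogenic-like than in naive-like cells, and in DKO the distance between these classes was larger. Pou3f2 was at 49.0 and 116, 2.37-fold higher in DKO, and Pou3f1 at 28.3 and 46.4, a log2 ratio of 0.71 (0.49 to 0.93). Pou3f1 therefore stood above control in this class as a whole and below it in naive-like cells. By cluster, it was at 23.8 and 51.9 in cluster 3, but at 33.2 and 36.4 in cluster 10. The log2 ratios were 1.13 and 0.13, and the interval of the second, -0.23 to 0.49, included 0. Pou3f3 gave 0 control and 26 DKO UMIs, which is at least 11-fold higher against the floor of 3 UMIs. Pou2f1 was at 67.4 and 60.9. Of the 4 members with at least 50 UMIs, 1 was past 2-fold, upward, where 2.52% of 10793 genes were higher and 1.2% lower by that much.

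The count in neurogenic-like cells moved with the processing. It was 2 members, Pou3f2 and Pou3f1, at a resolution of 0.3 or with cells thinned to 2000 UMIs. Without integration it was 0, with Pou3f2 at 0.98 and Pou3f1 at 0.14 (-0.10 to 0.38). In the 162 Six3-low DKO neurogenic-like cells, 10.7% of the DKO cells of the class, Pou2f2 was at 42.2 CPM, against 184 in the other 1346. Pou2f2 in the Six3-low DKO naive-like cells was at 21.7 (19.4 to 24.1), below the interval of these 162 cells, 29.9 to 57.9. All DKO naive-like cells together were at 34.5. Pou3f3 gave 19 UMIs in the 162 cells and 7 in the other 1346, and Pou3f2 was at 163 and 111.

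In ganglion-like cells Pou2f2 was higher in DKO than in control, the opposite direction to naive-like cells. It was at 190.1 CPM (181 to 199.9) in control and 285 (276 to 295) in DKO, a log2 ratio of 0.59 (0.50 to 0.68). The overlapping gene D930028M14Rik was lower in DKO ganglion-like cells, at 801 and 595, and at 461 and 432 in cluster 8. Pou3f1 was at 199.7 and 161, a log2 ratio of -0.31 (-0.41 to -0.21), and Pou3f2 at 53.5 and 71.6. Pou2f1 was at 41.0 and 37.8, its lowest level among the neural classes in both libraries. Pou3f3 gave 8 and 18 UMIs, with an interval of the log2 ratio from -0.61 to 2.07. Of the 4 members with at least 50 UMIs, 0 were past 2-fold, where 2.94% of 10728 genes were higher and 1.18% lower.

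**Figure D3:**
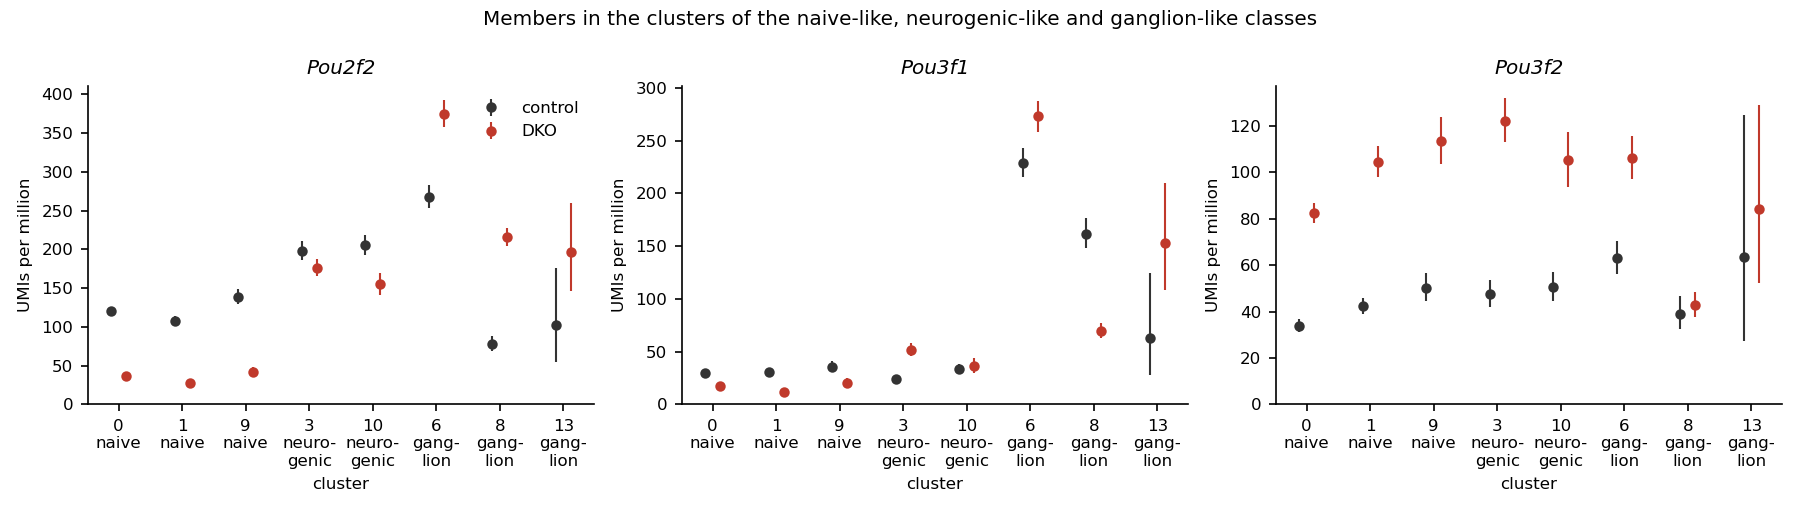
Level in CPM (vertical axis, linear) of Pou2f2, Pou3f1 and Pou3f2 in the clusters of the naive-like (0, 1, 9), neurogenic-like (3, 10) and ganglion-like (6, 8, 13) classes, for control (dark) and DKO (red), with exact 95% Poisson intervals as bars. In cluster 8, Pou2f2 is at 77.9 in control and 216 in DKO, while Pou3f1 is at 162 and 69.7.

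The ganglion-like clusters were not alike in this respect. Cluster 6, led by Isl1, Pou4f2 and Cntn2, held 585 control and 759 DKO cells, and cluster 8, led by Sncg, Nefl, Gap43 and Mapt, which mark more mature axons, held 318 and 740. In cluster 6 Pou2f2 was at 267 CPM in control and 375 in DKO, Pou3f1 at 229 and 273, and Pou3f2 at 63.0 and 106. All 3 were higher in DKO, Pou2f2 and Pou3f1 by less than 1.5-fold. In cluster 8 Pou2f2 was at 77.9 and 216, a log2 ratio of 1.47 (1.27 to 1.67), and Pou3f1 at 162 and 69.7, a log2 ratio of -1.22 (-1.41 to -1.03). The level of Pou2f2 was thus lower in cluster 8 than in cluster 6 in both libraries, and by less in DKO. Pou3f1 had the opposite pattern, with a larger step between the clusters in DKO. In cluster 8 alone 2 members were past 2-fold, 1 upward and 1 downward, where 1.86% of 9391 genes were higher and 0.948% lower. Of the 1713 DKO ganglion-like cells 1700 lay outside Six3-low subclusters, with Pou2f2 at 286.

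The margin and pigment class (cluster 5, 630 control and 971 DKO cells) was led by Pmel, Dct and Gja1. Its Pou2f2 and Pou3f2 differed between the libraries in the same directions as in naive-like cells. Pou2f2 was at 87.6 CPM in control and 32.9 in DKO, a log2 ratio of -1.41 (-1.63 to -1.20), and Pou3f2 at 5.09 and 21.7, a log2 ratio of 2.09 (1.55 to 2.68). Pou3f1 was at 23.7 and 20.9 and Pou2f1 at 59.1 and 59.7. In the 619 Six3-low DKO cells Pou2f2 was at 16.3 and Pou3f2 at 27.6, and in the other 352 at 63.4 and 10.9. Past 2-fold were 1 member upward and 1 downward of 4, where 2.7% of 10717 genes were higher and 0.998% lower. Pou3f3 gave 2 and 4 UMIs in this class. The border with the naive-like class moved with the clustering: the margin class held 2298 control and 2472 DKO cells at a resolution of 0.3, and 42 and 2572 without integration. Pou3f3 UMIs moved with it, to 4 and 109 in the margin class at a resolution of 0.3, and to 0 and 294 without integration. The class without integration included a cluster of 1 control and 1085 DKO cells led by Fabp7, Vwc2 and Tfap2c. Its 6 ciliary margin markers stood above the other cells, but no margin or pigment marker was among its leading genes. The Pou3f3 UMIs of that class were not split by cluster, so they do not place Pou3f3 in margin cells.

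The other neurons were few. In amacrine or horizontal-like cells (131 control and 193 DKO), the interneurons born in the same days, Pou2f2 was at 74.8 CPM in control and 165 in DKO, a log2 ratio of 1.14 (0.68 to 1.61). Pou3f1 was at 166 and 187 and Pou3f2 at 90.8 and 132 there. In photoreceptor-like cells (92 and 115) Pou2f2 gave 8 and 36 UMIs, or 16.2 and 81.8 CPM, and Pou3f1 60 and 39 UMIs. In each of these differentiating classes Pou2f2 was thus higher in DKO, as in ganglion-like cells, while it was lower in naive-like and margin cells. Pou3f2 was the member whose level was higher in DKO in each of the 9 named classes, those outside the retina included. It gave 3 control and 22 DKO UMIs in lens-like cells, 1 and 19 in macrophage-like cells, and 0 and 5 in red blood-like cells, where its DKO level was 2.56 CPM. The part of free RNA in these low values was not tested.

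**Figure D4:**
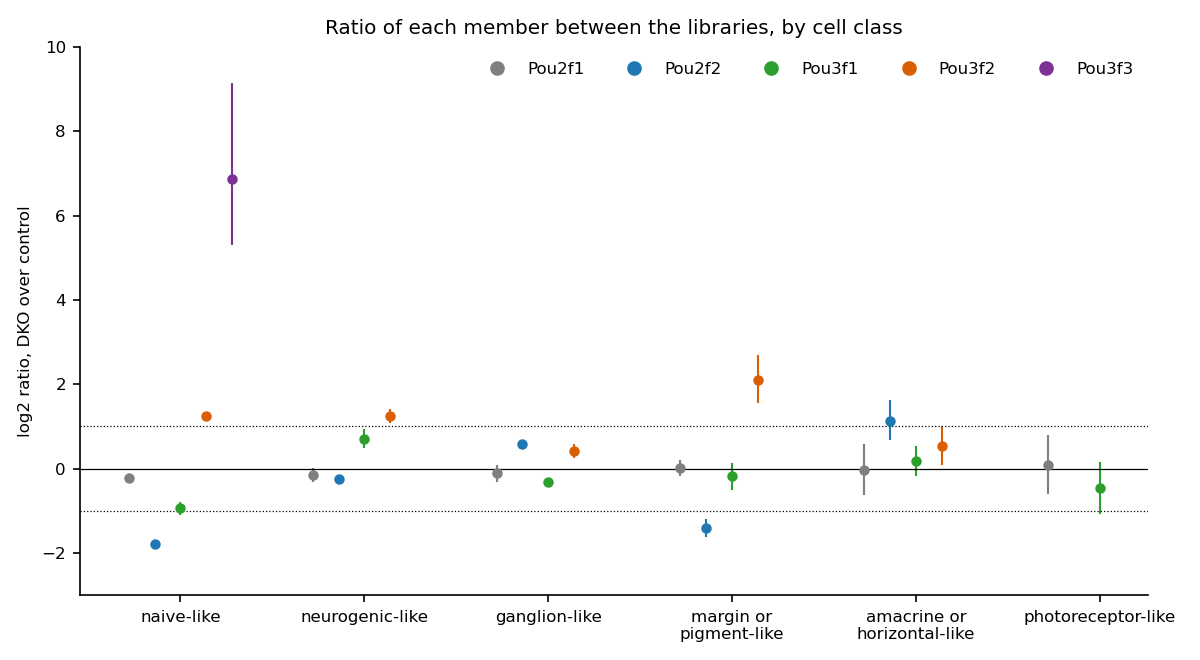
The log2 ratio of each member, DKO over control (vertical axis), in 6 cell classes (horizontal axis), for members with at least 50 UMIs over both libraries, with exact binomial 95% intervals as bars and dotted lines at 2-fold. Pou2f2 is at -1.78 in naive-like, 0.59 in ganglion-like and 1.14 in amacrine or horizontal-like cells, and Pou2f1 stays within -0.23 to 0.09.

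Cluster 4, led by Rspo3, Eomes, Lhx9, Uncx and Tbr1, held 1519 DKO and 84 control cells and stayed unnamed. Its control cells had 0 UMIs of Eomes and Tbr1 and Atoh7 at 1710 CPM, against 154, 85.4 and 337 in its DKO cells, so these were not the same kind of cells and no ratio is read. In the DKO cells Pou2f2 was at 371 CPM (358 to 384), near the 375 of cluster 6 in the same library and above all other clusters of either library. Pou3f2 was at 142 and Pou3f1 at 81.1. Pou3f3 gave 117 UMIs, 14.7 CPM, nearly all from its subclusters with less Six3. Among the 3 subclusters with at least 100 cells, Six3 was at 122, 153 and 374, and Pou3f3 gave 89, 20 and 4 UMIs from 672, 189 and 528 cells. Pou2f2 was at 606, 211 and 245 in the same order, so its high level came from 1 subcluster and did not follow Six3 in order.

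The order of the classes differed between the members. In control, Pou2f2 was highest in macrophage-like (219 CPM), neurogenic-like (202) and ganglion-like cells (190.1), whose neighbouring intervals overlapped, followed by naive-like cells (119) and margin cells (87.6), where they did not. In DKO, ganglion-like cells (285) came first and naive-like cells (34.5) stood level with margin cells (32.9), with overlapping intervals. Pou3f1 was highest in control in the ganglion-like (199.7), the amacrine or horizontal-like (166) and the photoreceptor-like class (121), and these 3 were also its first classes in DKO. Pou3f2 was highest in amacrine or horizontal-like cells in both libraries, at 90.8 and 132. Pou2f1 lay between 35.4 and 76.9 in all control classes but red blood-like cells, where every member was at 2.89 or below. In lens-like cells Pou2f1 was at 45.7 and 46.2, while the other members were at 8.02 or below.

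Detection of pairs of members in the same cell was sparse. With cells thinned to 2000 UMIs, 24 DKO naive-like cells, 0.68% (0.44 to 1.01), held both Pou2f2 and Pou3f2, where the product of their shares was 1%. Of the cells with a Pou2f2 UMI, 11.4% held Pou3f2, against 17.2% of the others. In control naive-like cells these shares were 7.96% and 8.22%. The same pair went the other way in DKO ganglion-like cells. There 93 cells, 6.20% (5.04 to 7.55), held both, where the product was 4.49%. In DKO ganglion-like cells 161 cells, 10.7%, held both Pou2f2 and Pou3f1, where the product was 7.95%, and in control 77 cells, 8.59%, where it was 7.48%. Cells of a class also differ in cluster and subcluster, which these shares do not separate.

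Likeness of pattern was measured over 19 control clusters of at least 50 cells, as Pearson's r of log2 of the level in CPM plus 1, among 9325 genes with at least 500 control UMIs. The clusters share a library, so r is a description. Pou3f1 was most like Cadps (0.98), Syt1 and Gpm6a (both 0.97), genes of synaptic vesicles and of the neuronal membrane. Pou2f1 was most like Skiv2l2, Zfp592 and Tspan14 (all 0.98), and Pou2f2 was most like Zfp961 (0.92), Katnbl1 and Klhl2 (both 0.91). Pou3f2 was most like Mir124-2hg, the host gene of a neuronal microRNA, Cacng4 (both 0.90) and Tox (0.89). Akap7, Ly6h and Tac1 came first for Pou3f3 (0.70 to 0.75), but this rests on 13 control UMIs of the gene. Between members, r was 0.79 for Pou3f1 with Pou3f2, 0.79 for Pou2f2 with Pou3f2 and 0.76 for Pou2f1 with Pou2f2.

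Of 11 listed genes, the other POU family genes and the coactivator Pou2af1, 7 had at least 50 UMIs in naive-like cells, 2 were higher and 0 lower by 2-fold. The shares over all genes of this class were 3.25% and 1.25%. This list and those below were chosen with earlier results of these data known, so nothing is read from their counts. Pou3f4, the remaining POU3 gene, gave 2 control and 600 DKO UMIs, or 0.0541 and 19.3 CPM, a log2 ratio of 8.48 (6.62 to 11.52). It thus resembled Pou3f3, with the same near absence in control. In neurogenic-like cells it was at 0.841 and 11.3, and in ganglion-like cells at 2.39 and 4.95. Pou4f1, a ganglion cell factor, was at 1.57 and 3.37 in naive-like cells, and Pou4f3, another, at 2.52 and 11.4 in ganglion-like cells. The counts were 1 higher of 7 in neurogenic-like, 2 higher of 8 in ganglion-like and 0 of 2 in margin cells, with none lower. Of all genes in these classes, 2.52%, 2.94% and 2.7% were higher. The median log2 ratio of those counted was 0.38 in naive-like, -0.47 in neurogenic-like, 0.06 in ganglion-like and 0.29 in margin cells, where that of all genes was 0.03, 0.02, 0.02 and 0.03.

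**Figure D5:**
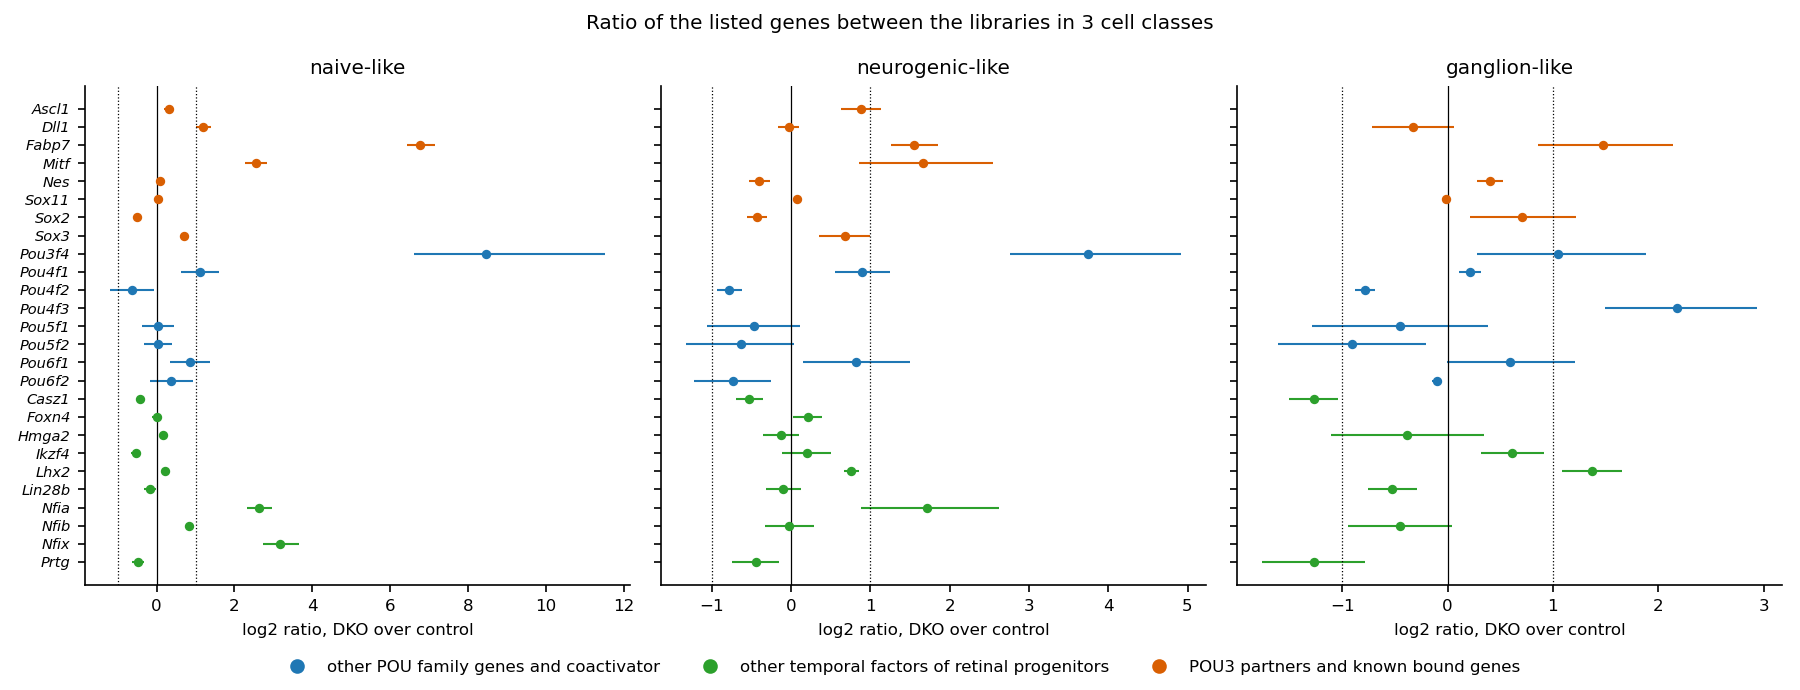
The log2 ratio of listed genes, DKO over control (horizontal axis, a separate scale per panel), in naive-like, neurogenic-like and ganglion-like cells, for genes with at least 50 UMIs over both libraries, with exact binomial 95% intervals as bars and dotted lines at 2-fold. Pou3f4 at 8.48 and Fabp7 at 6.78 lie farthest to the right in naive-like cells, and Sox11 is near 0 in all 3 panels.

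Other genes known to mark the age of retinal progenitors were mostly within 2-fold. In naive-like cells 10 of 11 were measured and 2 were higher, where 3.25% of all genes were, with a median log2 ratio of 0.08. Nfia and Nfix, factors of late progenitors and glia, were at 2.73 and 16.9 and at 1.19 and 10.8 CPM in control and DKO. Lin28b and Hmga2, marks of early progenitors, had log2 ratios of -0.17 and 0.15, and Casz1 of -0.42. Ikzf1 gave 28 and 15 UMIs and was not counted. In neurogenic-like cells 1 of 9 was higher, Nfia at 1.59 and 5.23. In ganglion-like cells 1 of 7 was higher, Lhx2 at 16.5 and 42.6, and 2 were lower, Casz1 at 51.4 and 21.3 and Prtg at 12.3 and 5.13. In margin cells 1 of 9 was lower, Foxn4 at 8.27 and 3.96. The medians in these 3 classes were -0.02, -0.45 and -0.21. Of all genes there, 2.52%, 2.94% and 2.7% were higher and 1.2%, 1.18% and 0.998% lower.

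Of 8 genes known as partners of POU3 proteins or as bound by them, 3 were higher in naive-like cells and 0 lower. Over all genes of the class, 3.25% were higher and 1.25% lower. The list was chosen with earlier results of these data known, so its counts say nothing of POU3 activity. Fabp7 was at 1.76 CPM in control and 193 in DKO, Mitf, the pigment cell factor, at 3.27 and 19.2, and Dll1, a Notch ligand, at 8.20 and 18.9. Sox2, a partner of POU proteins in progenitors, had a log2 ratio of -0.50, Sox3 of 0.69 and Nes of 0.09. Fabp7 was past 2-fold in all 4 classes, with 12.7 and 37.2 in neurogenic-like, 3.4 and 9.46 in ganglion-like and 7.0 and 21.9 in margin cells. Mitf was past 2-fold in neurogenic-like cells, at 1.68 and 5.35, and in margin cells, at 41.2 and 115, and Dll1 in margin cells, at 4.61 and 9.35. The counts were 2 of 8 in neurogenic-like, 1 of 5 in ganglion-like and 3 of 7 in margin cells, all higher, where 2.52%, 2.94% and 2.7% of all genes were. Median log2 ratios were 0.38, 0.40 and 0.26, against 0.51 in naive-like cells.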

How the data were processed

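Single cells of E13.5 mouse eyecups were profiled in 1 control and 1 DKO library with the 10x 3' kit. The authors mapped the reads to mm10, and the submitters' notes name Cell Ranger 3.1.0. The deposited values are UMI counts per gene and cell, without normalization, for the cells that this program called. Kept were cells in which over 200 but below 6000 genes were detected and mitochondrial UMIs made up less than 20%. Libraries were integrated by anchors in Seurat 5.3.0 (R 4.3.3) with 2000 features and 20 dimensions and clustered at resolution 0.5. A cluster was named where 75% of a marker list, and no fewer than 3 markers, stood above the remaining cells. Scrublet in scanpy 1.11.5, at a threshold of 0.225, called 300 control (3.05%) and 329 DKO doublets (2.71%). The automatic threshold of the control library, 0.635, was replaced by that of the DKO library. Doublets were kept, and left out in an alternative. No test was run, since each genotype has 1 library. The ratio and its interval were tested on simulated data.

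The members, the gene lists and the settings were chosen with earlier results of these data known. Named genes were the 5 members, the listed genes past 2-fold with at least 50 UMIs, and the 3 genes most like each member. Other listed genes named with values, and the markers of cluster 4, were chosen after their values were seen. The lists of other POU genes, of other temporal factors and of POU3 partners hold 11, 11 and 8 genes. Alternatives were the doublets left out, at least 1000 genes per cell, resolutions of 0.3 and 1, no integration, a total without mitochondrial and hemoglobin UMIs, cells thinned to 2000 UMIs, the mean over cells and Six3-low DKO cells. Each ganglion-like cluster alone, with the background of cluster 8, was added after seeing the data.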

Additional observations from a re-analysis of the deposited data

Results flagged for a closer look

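The ratio of Pou2f2 between the libraries differed between 2 cell classes. Its log2 ratio, DKO over control, was -1.78 in naive-like and 0.59 in ganglion-like cells, a difference of 2.37. The intervals of both ratios lay away from 0, on opposite sides. The difference was not tested, since each genotype has 1 library. It was larger against cluster 8 of the ganglion-like class, at 1.47, than against cluster 6, at 0.49.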

How the results depend on the processing

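Of the alternative counts of members past 2-fold, 21 stayed within 1.5 times the reported count and 8 did not. The main counts were 3 members in naive-like, 1 in neurogenic-like and 0 in ganglion-like cells. At resolution 0.3 the count was 2 in neurogenic-like cells, and at resolution 1 it was 1 in naive-like cells. Without integration the counts were 1, 0 and 1 in naive-like, neurogenic-like and ganglion-like cells. The ganglion-like count was Pou3f3, with 6 and 63 UMIs, in a class of 899 control and 3194 DKO cells. That class included a cluster of 45 control and 1834 DKO cells led by Mmd2, Uncx and Tac1. In neurogenic-like cells thinning gave 2, and Six3-low DKO cells gave 3. In ganglion-like cells cluster 8 alone gave 2. The cause of these shifts was not tested. At resolution 1 and without integration the naive-like class held 1792 and 2059 control and 1428 and 1036 DKO cells, and Pou3f3 was not counted there, having under 50 UMIs. Among counted ratios whose reported interval excluded 0, 3 changed sign. Pou2f2 in neurogenic-like cells did so at resolution 0.3, at a log2 ratio of 0.012 (-0.075 to 0.098). Pou3f1 in naive-like cells did so without integration, at 0.013 (-0.19 to 0.21). Both of these intervals included 0. The last was Pou3f1 in ganglion-like cells in cluster 6 alone, at 0.25. Of the other alternative ratios of single members, 102 stayed within the counting interval of the reported ratio and 50 moved beyond it. Some of these changed sign where the reported interval included 0. Pou2f1 in ganglion-like cells went from -0.12 to 0.41 without integration, and Pou3f1 in margin cells from -0.18 to as high as 0.36. Pou2f2 in naive-like cells lay between -2.45 and -1.01 and Pou3f2 between 0.72 and 1.69 over all alternatives. In these 2 libraries Pou3f3 in control cells rests on 13 UMIs, which limits every ratio of that gene. No paired analysis was possible because the libraries form only 1 pair, and no replicate could be left out.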
